A study of Mus musculus with 4 samples.

Results

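The matrix metalloproteinases (MMPs), the ADAM, ADAMTS and ADAMTS-like proteins and the tissue inhibitors of metalloproteinases (TIMPs) were followed in mouse epididymal adipose tissue. Members were taken by symbol alone, as every gene listed as Mmp, Timp, Adam, Adamts or Adamtsl followed by a number, which gave 84 of the 24421 genes in the expression matrices. They were 23 MMPs, 33 ADAMs, 19 ADAMTS proteases, 5 ADAMTS-like genes and 4 TIMPs. The tissue came from male wild-type C57BL/6J mice in 2 groups, each sequenced as 2 poly(A) libraries. Ctrl mice, 10 weeks old at the start, ate a high-fat diet without interruption over 14 weeks. WC1 mice, which went through 1 weight cycle, started the high-fat diet at 8 weeks of age and ate it for 8 weeks, were switched to standard diet for 2 weeks, and then had high-fat diet again over 6 weeks. Time on high-fat diet was therefore 14 weeks in each group, all mice were 24 weeks old at the end, and no lean group was among the libraries. The 4 libraries are called Ctrl 1, Ctrl 2, WC1 1 and WC1 2, and the labels do not say whether each came from 1 mouse or from pooled tissue.

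MMPs are zinc-dependent proteases that cut collagens, elastin, proteoglycans and other matrix proteins, and most are secreted as inactive precursors. ADAMs are membrane-anchored and mainly release the outer parts of other membrane proteins, while ADAMTS proteases are secreted and cut proteoglycans and procollagens. TIMPs block the active sites of these enzymes, and Timp3 also inhibits several ADAM and ADAMTS proteases. In fat depots these genes are known from the remodelling of the matrix as adipocytes enlarge and from the macrophages that enter obese adipose tissue.

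The libraries held between 61465029 and 90965297 reads, so that 3 reads corresponded to between 0.0345 and 0.0492 CPM, the reads of a gene per scaled library size. The defining markers of adipocytes were present and higher in both WC1 libraries for 6 of 6 genes (summed 9564 and 10686 CPM in Ctrl against 17205 and 22098 in WC1), whereas 4 of 6 epididymis markers (Lcn5, Lcn8, Crisp1 and Cst11) were at 0 in all 4 libraries. Macrophage markers were lower in both WC1 libraries for 8 of 8 genes, with summed levels of 12110 and 11056 CPM in Ctrl and 7151 and 5084 CPM in WC1. In libraries of whole tissue, fewer cells of a type and less RNA per cell cannot be told apart. Replicates of a group differed by more than counting noise, with a chi-square per degree of freedom of 33.9 in Ctrl and 83.7 in WC1.

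Of the 84 members, 54 reached 0.5 CPM in at least 2 libraries and were tested. Of the other 30, 15 were at 0 in every library. Compared per transcript length, in TPM, a length-scaled level with a fixed total per library, macrophage elastase Mmp12 had the highest level of all members, with a mean of 1977 TPM over the 4 libraries. Next came the inhibitor Timp2 (596 TPM), Adam8 (474 TPM) and Adam15 (232 TPM), then the gelatinase Mmp2 (229 TPM) and Mmp19 (207 TPM). Mmp12 was above Timp2 in each library, while the ranges of Adam15, Mmp2 and Mmp19 over the 4 libraries overlapped. Summed over all members, the level was 6637 and 6319 TPM in the Ctrl libraries and 3933 and 2909 TPM in the WC1 libraries. Mmp12 alone made up 49.7% and 46.8% of that sum in Ctrl, and 28.9% and 17.7% in WC1.

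The families moved unevenly. MMPs summed to 4275 and 3955 TPM in Ctrl and 1770 and 1032 TPM in WC1, and without Mmp12 to 978 and 999 TPM against 632 and 516 TPM. ADAMs summed to 1136 and 1098 TPM in Ctrl and 943 and 739 TPM in WC1. TIMPs stayed closer, at 949 and 992 TPM in Ctrl and 909 and 802 TPM in WC1. ADAMTS proteases were the family whose sum was higher in both WC1 libraries, at 219 and 216 TPM in Ctrl and 265 and 293 TPM in WC1. The ratio of summed MMP to summed TIMP transcripts was 4.50 and 3.99 in Ctrl and 1.95 and 1.29 in WC1, and without Mmp12 it was 1.03 and 1.01 against 0.695 and 0.644. These sums are descriptions of 2 libraries a group, for which an exact two-sided permutation test cannot give a p below 0.333.

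**Figure D1:**
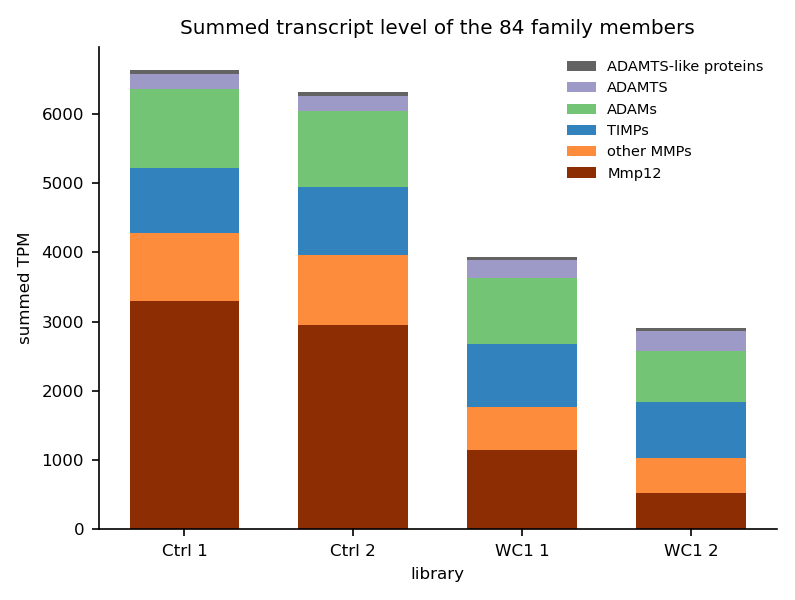
Stacked bars of the summed level in TPM (vertical axis) of Mmp12, the other MMPs, the TIMPs, the ADAMs, the ADAMTS proteases and the ADAMTS-like proteins, with 1 bar for each of the 4 libraries. The Mmp12 segment measures 3297 and 2956 TPM in Ctrl and 1138 and 516 TPM in WC1, while the TIMP segment stays between 802 and 992 TPM.

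By limma on log2(CPM + 1) with Benjamini-Hochberg adjustment over all 14106 genes tested, 18 of the 54 members (33.3%) passed an adjusted p of 0.05, beside 17.9% of all genes tested. 6 members (11.1%) rose in WC1 and 12 (22.2%) fell, beside 10.2% and 7.71% of all genes. Past a 2-fold change on this scale, which understates the change of low genes, were 3 members that rose and 7 that fell, beside 2.48% and 1.4% of all genes. The median log2 fold change of the members was -0.04 and that of all genes -0.02. Both WC1 libraries lay outside the range of both Ctrl libraries for 41 of 54 members (75.9%), beside 69.3% of all genes. Nothing in the labels gives the source of each library beyond its group, so the p-values measure the spread between these samples. With either Ctrl library left out no member passed the test, with 17 members at an unadjusted p under 0.05 without Ctrl 1 and 19 without Ctrl 2, against 28 in the full set. Without the filter on low values 9 of the 18 lost the call, namely Mmp2, Mmp12, Mmp14, Mmp28, Timp4, Adam8, Adam15, Adam19 and Adamts5. In the TPM matrix, where all genes together have a median that lies 0.12 higher on the log2 scale, 7 members rose and 8 fell, beside 14.6% and 4.13% of all genes (18.7% in either direction). On recovered reads edgeR had 6 members that rose and 11 that fell, beside 10.5% and 7.14% of all genes (17.6% in either direction), and DESeq2 had 10 and 17, beside 15.1% and 12.3% (27.4% in either direction).

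**Figure D2:**
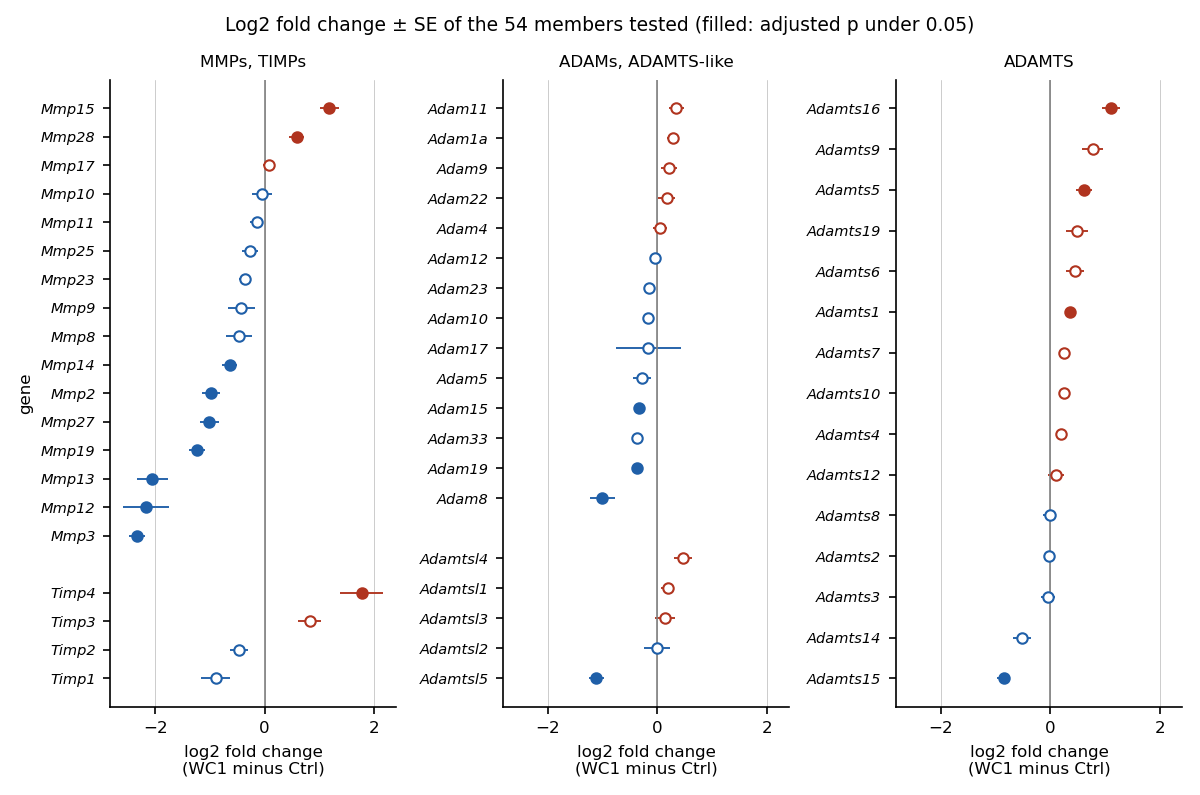
Log2 fold change of WC1 over Ctrl (horizontal axis, log2(CPM + 1) scale) of the 54 members tested, by family; bars are the SE, and filled points passed an adjusted p of 0.05. The MMP points reach from -2.33 for Mmp3 to 1.18 for Mmp15, and every ADAM point lies between -1.01 and 0.35.

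Among the MMPs, 7 fell, 2 rose and 7 did not pass the test, with a median log2 fold change of -0.45, beside 7.71% of all genes that fell, 10.2% that rose and a median of -0.02. The lowest values belonged to neighbours in the genome. 10 MMP genes lie side by side on chromosome 9 within 427 kb (GRCm38.p6, chr9:7272514-7699585), in the order Mmp13, Mmp12, Mmp1b, Mmp3, Mmp1a, Mmp10, Mmp8, Mmp27, Mmp20 and Mmp7. Of the 6 that were tested, 4 fell and none rose, beside 7.71% and 10.2% of all genes, and the median over the 6 was -1.53. Mmp1a, Mmp1b and Mmp20 were at 0 in every library, and the matrilysin Mmp7 did not exceed 0.164 CPM. How the counting treated reads that fit more than 1 of these related genes is not stated, and their sequences were not compared here.

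Several promoters of this cluster share letters known as the AP-1 motif, TGACTCA, and the TATA motif, TATAAA, so the stretch around the annotated start is shown for all 4 genes of the cluster that fell, Mmp27 without the AP-1 letters among them, and for Mmp10, which did not pass the test. Each runs from 100 bases before to 20 after the start on the plus strand of GRCm38.p6 (RefSeq), with the AP-1 letters or their reverse complement TGAGTCA and the TATAAA letters in capitals. The windows are chr9:7445722-7445841 for Mmp3, chr9:7272414-7272533 for Mmp13, chr9:7347274-7347393 for 1 of 2 annotated starts of Mmp12, chr9:7571296-7571415 for Mmp27, and chr9:7502242-7502361 for Mmp10. The Mmp12 start shown was taken because its promoter holds the AP-1 letters, and the promoter of its other start does not hold them.
Mmp3: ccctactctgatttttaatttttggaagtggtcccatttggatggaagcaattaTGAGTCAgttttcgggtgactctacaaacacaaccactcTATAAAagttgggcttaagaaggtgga
Mmp13: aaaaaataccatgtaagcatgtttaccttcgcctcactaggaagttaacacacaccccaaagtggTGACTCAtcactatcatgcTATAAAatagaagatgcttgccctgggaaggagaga
Mmp12: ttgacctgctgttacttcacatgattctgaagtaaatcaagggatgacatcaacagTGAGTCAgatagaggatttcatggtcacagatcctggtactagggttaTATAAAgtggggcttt
Mmp27: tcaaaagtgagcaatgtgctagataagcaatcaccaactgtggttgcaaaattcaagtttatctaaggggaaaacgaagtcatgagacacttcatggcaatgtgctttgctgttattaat
Mmp10: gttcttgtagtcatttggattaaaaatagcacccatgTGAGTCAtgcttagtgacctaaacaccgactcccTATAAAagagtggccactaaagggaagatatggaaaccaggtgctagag
In these windows the AP-1 letters begin 46, 35, 44 and 63 bases before the start of Mmp3, Mmp13, Mmp12 and Mmp10, in that order. The TATAAA letters begin 7, 16 and 29 bases before the start of Mmp3, Mmp13 and Mmp10, and 4 bases after that of Mmp12. Positions count from the annotated starts, which were not checked against these data. Mmp27 holds neither motif in its window and no AP-1 letters in its RefSeq promoter. RefSeq promoters, from 250 bases before to 50 after the start, were at hand for 53 of the 84 members, and were searched on both strands. The AP-1 letters stood in 10 of 58 member promoters (17.2%) and in 1709 of all 32851 promoters (5.20%), and both motifs together in 8 of 58 (13.8%) and 309 (0.941%). Within the chromosome 9 cluster 7 of 12 promoters held both, and outside it 1 of the other 46 did. A match is a description of the sequence, and binding was not measured.

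Mmp3, stromelysin-1, which cuts proteoglycans and activates other pro-MMPs, had 100 and 82.0 CPM in Ctrl against 18.9 and 15.6 CPM in WC1. Each WC1 library was far below each Ctrl library, and the difference passed (log2 fold change -2.33 ± 0.14, SE, n = 2 per group, limma adjusted p = 0.0062). Mmp12, the macrophage elastase (chr9:7344397-7360461), had 6223 and 5523 CPM in Ctrl against 1969 and 864 CPM in WC1. The groups did not overlap, although the WC1 libraries differed 2.28-fold from each other, and the difference passed (log2 fold change -2.17 ± 0.41, limma adjusted p = 0.032). The log2 fold change of Mmp12 ranged from -2.76 without WC1 1 to -1.57 without WC1 2. Mmp13, the main collagenase of rodents, had 19.7 and 17.1 CPM in Ctrl against 5.24 and 2.49 CPM in WC1. It fell (log2 fold change -2.05 ± 0.29, limma adjusted p = 0.020), again with WC1 2 as the lowest library. Mmp27, a little-studied stromelysin-like member, was low throughout, at 3.49 and 2.74 CPM in Ctrl and 1.29 and 0.810 CPM in WC1, and fell (log2 fold change -1.01, limma adjusted p = 0.028). The remaining tested genes of the cluster did not pass. Mmp8, the collagenase typical of neutrophils, had a log2 difference of -0.47 (limma adjusted p = 0.214), and stromelysin-2 Mmp10 one of -0.04 (limma adjusted p = 0.888), both below 1 CPM in every library.

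Away from the cluster, 3 further MMPs fell. Mmp19, a widely expressed MMP of basement membrane substrates, had 464 and 534 CPM in Ctrl against 238 and 187 CPM in WC1. It fell (log2 fold change -1.24 ± 0.15, limma adjusted p = 0.016), and the groups did not overlap. Tmem198b, which overlaps Mmp19 in the annotation, stayed between 22.7 and 27.1 CPM. Mmp2, gelatinase A, which cuts type IV and denatured collagen, had 465 and 462 CPM in Ctrl against 277 and 198 CPM in WC1. It fell (log2 fold change -0.98 ± 0.17, limma adjusted p = 0.027), with nearly equal Ctrl libraries. Mmp14, the membrane-type MMP that activates pro-Mmp2 at the cell surface, had 272 and 258 CPM in Ctrl against 193 and 149 CPM in WC1. It fell (log2 fold change -0.64 ± 0.14, limma adjusted p = 0.040), but it did not pass in the TPM matrix. The other gelatinase, Mmp9, was low, at 4.05 and 4.25 CPM in Ctrl and 2.02 and 3.86 CPM in WC1, and did not pass (limma adjusted p = 0.262).

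2 MMPs rose. Mmp15, a second membrane-type MMP, had 9.12 and 11.5 CPM in Ctrl against 21.5 and 28.1 CPM in WC1. The groups were well apart (log2 fold change 1.18 ± 0.17, limma adjusted p = 0.021). Mmp28, epilysin, had 15.0 and 17.3 CPM in Ctrl against 22.0 and 27.6 CPM in WC1 (log2 fold change 0.58 ± 0.14, limma adjusted p = 0.049), and did not pass without WC1 2, at a pseudocount of 2 CPM or with median-of-ratios scaling. Mmp11, stromelysin-3, overlapped between the groups, at 36.8 and 40.4 CPM in Ctrl and 38.5 and 31.6 CPM in WC1. Among the membrane-type members, Mmp14 and Mmp15 thus passed in opposite directions, and the GPI-anchored Mmp17 and Mmp25 did not pass the test.

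**Figure D3:**
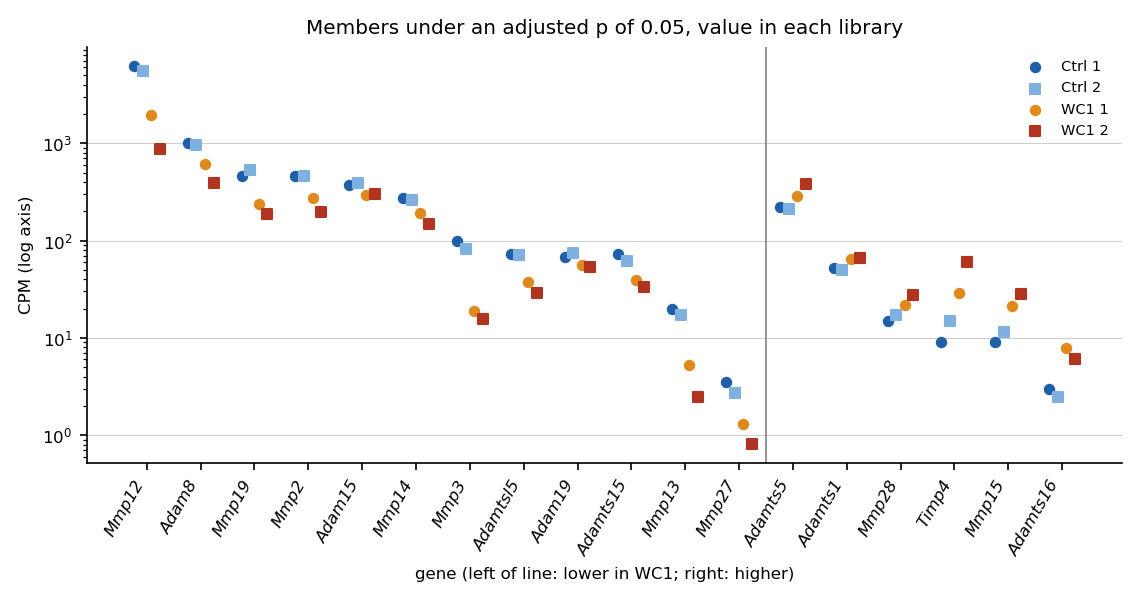
CPM (log axis) of the 18 members that passed the test, with 1 point per library; the 12 members left of the line fell in WC1 and the 6 right of it rose. For all 18 genes both WC1 points lie on the same side of both Ctrl points, with wide gaps for Mmp3, Mmp12 and Mmp13 and a wide spread within each group for Timp4.

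Of the inhibitors, Timp4 was the single TIMP that passed in the main limma fit, whereas with DESeq2 all 4 passed, Timp3 and Timp4 as higher and Timp1 and Timp2 as lower. Timp4, the member with the most tissue-restricted expression, had 9.05 and 14.7 CPM in Ctrl against 28.8 and 60.7 CPM in WC1. Each group spread widely without overlapping, and the difference passed (log2 fold change 1.77 ± 0.40, limma adjusted p = 0.043). Timp3, which binds to the matrix, had 120 and 168 CPM in Ctrl against 218 and 290 CPM in WC1, a log2 difference of 0.82 ± 0.21 (limma adjusted p = 0.057). Both WC1 libraries were above both Ctrl libraries, but the difference did not pass in the main limma fit. The Timp3 difference ranged from 0.58 without Ctrl 1 to 1.07 without Ctrl 2. Timp1, the inducible TIMP, had values of 114 and 102 CPM in Ctrl and 76.7 and 43.0 CPM in WC1 (log2 difference -0.90 ± 0.27, limma adjusted p = 0.080), a difference that ranged from -1.30 without WC1 1 to -0.49 without WC1 2 and passed in both of these fits. Timp2, which also takes part in the activation of pro-Mmp2 by Mmp14, had values of 1220 and 1276 CPM in Ctrl and 1025 and 794 CPM in WC1 (log2 difference -0.47 ± 0.16, limma adjusted p = 0.103), a difference of -0.65 without WC1 1, where it passed, and of -0.28 without WC1 2. Timp1 and Timp2 thus lay on the other side of Ctrl from Timp3 and Timp4.

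The makeup of the TIMP transcripts differed between the groups in the same way. Timp2 held most of the summed TIMP level in every library, with 67.8% and 68.6% of TPM in Ctrl and 64.9% and 58.9% in WC1. Timp1 held 25.8% and 22.4% in Ctrl and 19.8% and 13.0% in WC1. Timp3 held 5.14% and 6.97% in Ctrl and 10.7% and 16.6% in WC1, and Timp4 1.29% and 2.03% in Ctrl and 4.66% and 11.5% in WC1. Because these 4 shares make up the whole, they are not independent of each other. Timp1, Timp3 and Timp4 overlap synapsin genes, and the sources used here do not give whether the counting used strand. Syn1, on the strand opposite to Timp1, was at 18.6 and 22.7 CPM in Ctrl and 8.67 and 7.53 CPM in WC1. Syn2, opposite to Timp4, was at 3.48 and 3.30 CPM in Ctrl and 3.93 and 5.18 CPM in WC1, below Timp4 in every library, and Syn3 at the Timp3 gene did not exceed 0.985 CPM.

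Of the 14 ADAMs tested, 3 fell, none rose and 11 did not pass, beside 7.71% of all genes that fell and 10.2% that rose. Adam8, an ADAM of myeloid cells, had 1004 and 967 CPM in Ctrl against 618 and 388 CPM in WC1. It fell (log2 fold change -1.01 ± 0.23, limma adjusted p = 0.046), and this value ranged from -1.34 without WC1 1 to -0.67 without WC1 2. Adam15, which carries an integrin-binding motif, had 370 and 387 CPM in Ctrl against 297 and 303 CPM in WC1, and fell (log2 fold change -0.33 ± 0.08, limma adjusted p = 0.046). Adam19, a sheddase of neuregulins, had 68.5 and 74.8 CPM in Ctrl against 56.4 and 53.1 CPM in WC1, and fell (log2 fold change -0.38 ± 0.08, limma adjusted p = 0.037). The replicates of Adam15 and Adam19 lay close together, and their differences were the smallest among the members that fell. Adam15 did not pass with edgeR, and none of the 3 passed in the TPM matrix, in which the median of the ADAMs relative to that of all genes was -0.12, against -0.14 in CPM.

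The principal sheddases did not pass. Adam10, which cuts Notch and cadherins, had 139 and 136 CPM in Ctrl against 128 and 117 CPM in WC1 (limma adjusted p = 0.175). Adam17, which releases tumour necrosis factor, had 141 and 53.9 CPM in Ctrl against 122 and 49.2 CPM in WC1 (limma adjusted p = 0.863), and so differed more between libraries of a group than between groups. Adam9, a widely expressed sheddase, had 167 and 169 CPM in Ctrl against 225 and 168 CPM in WC1 (limma adjusted p = 0.351), with the difference in WC1 1 alone. Of the ADAMs known from testis or epididymis, 3 of 21 reached the level for testing and none of these passed.

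Of the 15 ADAMTS proteases tested, 3 rose, 1 fell and 11 did not pass, with a median log2 fold change of 0.24, beside 10.2% of all genes that rose and 7.71% that fell. Adamts5, a principal aggrecanase, had 219 and 212 CPM in Ctrl against 287 and 382 CPM in WC1 (log2 fold change 0.62 ± 0.15, limma adjusted p = 0.049). Adamts5 did not pass with edgeR, with median-of-ratios scaling or at a filter of 5 CPM on the mean. Adamts1, a proteoglycanase of versican, had 52.7 and 49.6 CPM in Ctrl against 65.3 and 66.3 CPM in WC1, and rose (log2 fold change 0.36 ± 0.07, limma adjusted p = 0.033). Adamts15, of the same proteoglycanase group, went the other way, from 72.7 and 61.2 CPM in Ctrl to 39.7 and 33.4 CPM in WC1 (log2 fold change -0.85 ± 0.13, limma adjusted p = 0.022). Of the members of this group that did not pass, Adamts9 came nearest, at 18.4 and 20.7 CPM in Ctrl and 28.0 and 41.1 CPM in WC1 (limma adjusted p = 0.053). Adamts9 passed with DESeq2, and its log2 difference ranged from 0.50 without WC1 2 to 1.04 without WC1 1.

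Adamts16 was low but well apart between the groups, with 2.95 and 2.46 CPM in Ctrl against 7.90 and 6.10 CPM in WC1, and rose (log2 fold change 1.10 ± 0.16, limma adjusted p = 0.021). The procollagen N-proteinases Adamts2, Adamts3 and Adamts14, which trim fibrillar procollagens, did not pass. Adamts2 had 237 and 241 CPM in Ctrl and 242 and 229 CPM in WC1, and Adamts14 had 24.1 and 25.1 CPM in Ctrl and 19.96 and 14.2 CPM in WC1 (limma adjusted p = 0.865 and 0.090). Adamts19 was the single member that reached the level for testing through WC1 alone, at 0.219 and 0.310 CPM in Ctrl and 1.10 and 0.508 CPM in WC1, and did not pass (limma adjusted p = 0.142).

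ADAMTS-like proteins share the matrix-binding modules of ADAMTS proteases but lack the protease domain. Adamtsl5 had 73.5 and 70.9 CPM in Ctrl against 37.3 and 28.7 CPM in WC1 (log2 fold change -1.12 ± 0.13, limma adjusted p = 0.016), with the groups far apart. The other 4 did not pass. Adamtsl4, which binds fibrillin microfibrils, had the largest difference among them, at 18.2 and 24.2 CPM in Ctrl and 27.2 and 31.9 CPM in WC1 (limma adjusted p = 0.103).

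Marker levels of several cell types moved with these results, in a comparison where 36.6% of all genes tested were lower and 32.7% higher in both WC1 libraries than in both Ctrl libraries. Beside the macrophage markers, lipid-associated macrophage markers were lower in both WC1 libraries for 6 of 6 genes (summed 10932 and 9555 CPM in Ctrl, 6735 and 3608 CPM in WC1), fibroblast markers for 5 of 7 (9323 and 9019 against 8183 and 6346 CPM) and mast cell markers for 5 of 5 (541 and 601 against 82.0 and 64.4 CPM). Endothelial markers were higher in both WC1 libraries for 5 of 5 genes (317 and 360 against 674 and 867 CPM), and smooth muscle and pericyte markers for 4 of 5 (123 and 126 against 202 and 257 CPM), with the other 1 lower in both. B cell markers were low and higher in both WC1 libraries for 4 of 4 genes (4.31 and 2.59 against 7.24 and 26.4 CPM), with WC1 2 far above WC1 1. Each member that fell, and Timp1 and Timp2, was therefore also divided by the summed CPM of the 8 macrophage markers, a description chosen after the values were seen. On this scale Mmp3, Mmp13 and Mmp12 remained lower in both WC1 libraries, at 0.365, 0.386 and 0.440 of the Ctrl mean, as did Mmp27 (0.635), Mmp19 (0.808) and Adamtsl5 (0.871). Mmp12 corresponded to 51.4% and 49.95% of the macrophage marker sum in Ctrl and to 27.5% and 17.0% in WC1. Adam8 (0.955), Mmp2 (0.967), Adamts15 (1.05) and Timp1 (1.03) overlapped between the groups, and Mmp14 (1.23), Timp2 (1.39), Adam19 (1.48) and Adam15 (1.54) were higher in both WC1 libraries. Per lipid-associated macrophage marker sum, Mmp3 (0.402), Mmp13 (0.409), Mmp12 (0.464) and Mmp27 (0.688) were again lower in both, but Mmp19 (0.885) and Adamtsl5 (0.955) overlapped. On that scale Adam8 (1.03), Mmp2 (1.055) and Adamts15 (1.16) overlapped as well. Timp1 (1.105), Mmp14 (1.35), Timp2 (1.52), Adam19 (1.64) and Adam15 (1.72) were higher in both WC1 libraries.

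The result depended on the marker sum taken as the divisor. The collagen gene Col3a1 made up most of the fibroblast sum in each library, at 5412 and 5114 CPM in Ctrl and 4720 and 3556 CPM in WC1. Per fibroblast marker sum, Mmp2 (0.642), Adam8 (0.636), Adamts15 (0.694) and Mmp14 (0.814) were lower in both WC1 libraries, as were Mmp3 (0.241), Mmp13 (0.258), Mmp12 (0.294), Mmp27 (0.422), Mmp19 (0.536) and Adamtsl5 (0.577). Timp1 (0.687) and Timp2 (0.919) were lower in both as well, while Adam15 (1.02) and Adam19 (0.975) overlapped. Mmp3, Mmp12, Mmp13 and Mmp27 were thus lower in both WC1 libraries on each of the 3 scales, having been taken for this division because they fell in CPM.

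**Figure D4:**
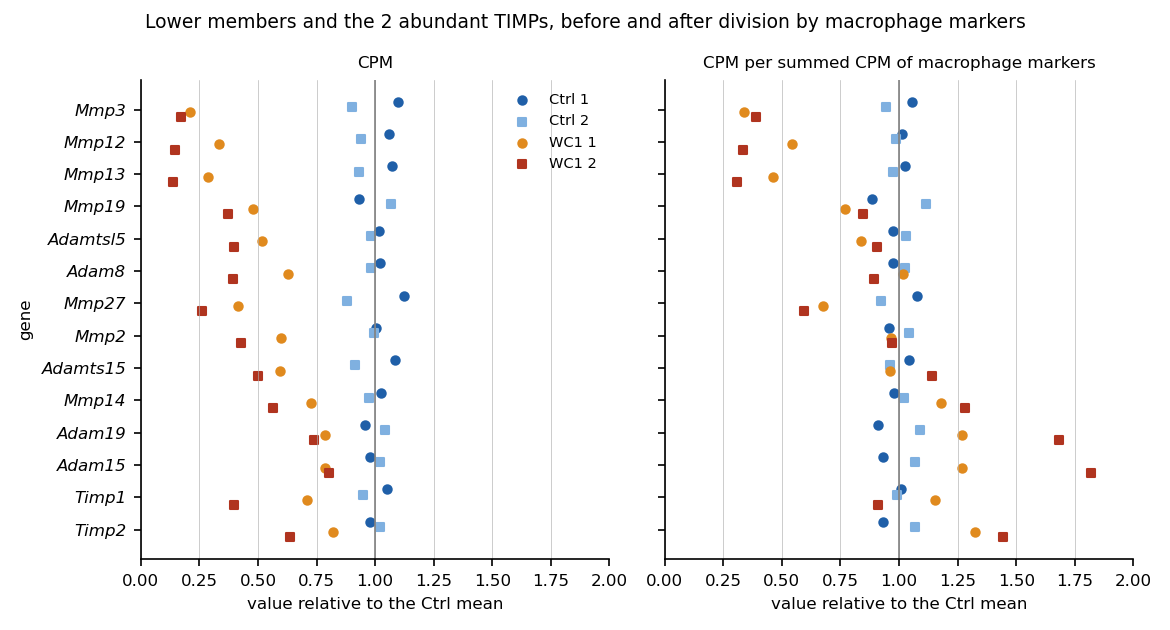
CPM of the 12 members that fell and of Timp1 and Timp2, relative to the Ctrl mean, as measured (left) and after division by the summed CPM of 8 macrophage markers (right); each point is 1 library. On the right Mmp3, Mmp12 and Mmp13 still lie below the Ctrl points, whereas both WC1 points of Mmp2 and 1 of those of Adam8 lie between the Ctrl points; per fibroblast marker sum, which is not drawn, Adam8 (0.636) and Mmp2 (0.642) were below Ctrl in both WC1 libraries.

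Members that rose were set beside the summed adipocyte, endothelial, and smooth muscle and pericyte markers in the same way. Per adipocyte marker sum, Timp4 (1.90 times the Ctrl mean) and Mmp15 (1.24) were higher in both WC1 libraries, while Adamts1 (0.669), Mmp28 (0.792) and Adamts5 (0.795) were lower in both, and Adamts16 (1.36) overlapped. Per endothelial marker sum, Timp4 (1.62) was again higher in both, Mmp15 (1.06) and Adamts16 (1.16) overlapped between the groups, and Adamts1 (0.570), Mmp28 (0.675) and Adamts5 (0.677) were lower in both. Per smooth muscle and pericyte marker sum, Timp4 (1.98) and Mmp15 (1.30) were higher in both, Adamts1 (0.705), Mmp28 (0.831) and Adamts5 (0.838) were lower in both, and Adamts16 (1.44) overlapped. The part of these cell types in each result was not tested beyond these ratios, and a marker sum is no count of cells.

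Genes that act with these proteases were read from 5 lists of 96 genes, of which 80 were tested. 13 rose (16.2%), 14 fell (17.5%) and 53 did not pass, beside 10.2% and 7.71% of all genes tested, and their median log2 fold change was -0.06. Among 17 regulators of matrix proteases, 2 rose (11.8%) and 1 fell (5.88%). Plaur, the urokinase receptor, which concentrates plasminogen activation at the cell surface, had 108 and 104 CPM in Ctrl against 55.0 and 40.9 CPM in WC1 (log2 fold change -1.14 ± 0.15, limma adjusted p = 0.018). Pcsk6, a proprotein convertase, had 33.6 and 39.1 CPM in Ctrl against 49.4 and 59.6 CPM in WC1 (0.57 ± 0.13, limma adjusted p = 0.043).

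Among 8 partners of Adam10 and Adam17, 2 rose (25%) and 3 fell (37.5%), beside 10.2% and 7.71% of all genes. Both that rose were tetraspanins of the group that escorts Adam10, with Tspan15 at 31.2 and 31.6 CPM in Ctrl and 47.1 and 53.1 CPM in WC1, and Tspan33 at 6.48 and 6.63 CPM in Ctrl and 12.3 and 11.0 CPM in WC1 (limma adjusted p = 0.018 and 0.020). Tspan5 and Tspan14, of the same tetraspanin group, fell, as did Rhbdf2, which carries Adam17 to the surface. In a list of 23 membrane proteins shed by ADAMs (17.4% rose and 21.7% fell), 4 rose (Btc, Notch1, Dll1 and Cdh5) and 5 fell (Tnfrsf1b, Cx3cl1, Mertk, Icam1 and Vcam1). Cdh5, the endothelial cadherin, had 108 and 127 CPM in Ctrl against 266 and 358 CPM in WC1 (log2 fold change 1.38 ± 0.17, limma adjusted p = 0.016), and the Notch ligand Dll1 was at 2.82 and 3.57 CPM in Ctrl and 7.98 and 9.56 CPM in WC1 (1.22 ± 0.15, limma adjusted p = 0.017).

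Of 17 matrix substrates, 2 rose (Eln and Ncan), 2 fell (Vcan and Dcn) and 13 did not pass, which is 11.8% in each direction beside 10.2% and 7.71% of all genes. Vcan, the proteoglycan versican, had 71.5 and 76.9 CPM in Ctrl against 36.6 and 43.9 CPM in WC1 (-0.87 ± 0.11, limma adjusted p = 0.017), and Ncan, neurocan, had 11.3 and 12.4 CPM in Ctrl against 21.6 and 23.7 CPM in WC1 (0.88 ± 0.10, limma adjusted p = 0.015). Of 15 other matrix proteases and their helpers, 3 rose (Tll1, Pcolce2 and Htra1) and 3 fell (Pcolce, Fap and Ctsk), each 20%. The pair of procollagen C-proteinase enhancers passed in opposite directions, with Pcolce at 233 and 225 CPM in Ctrl and 148 and 125 CPM in WC1 (-0.75 ± 0.10, limma adjusted p = 0.019) and Pcolce2 at 40.9 and 47.4 CPM in Ctrl and 101 and 150 CPM in WC1 (1.46 ± 0.20, limma adjusted p = 0.019).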

How the data were processed

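Poly(A) RNA libraries of epididymal adipose tissue were analysed from 2 matrices. The submitters' processing notes name fastp, HISAT2, StringTie and mm10 without versions or roles, and the sources used here give neither the counting program nor its use of strand. The deposited CPM matrix holds gene read counts divided by a scaled library size (a normalised signal), from which whole reads were recovered within 0.01. The authors also deposited TPM values, per transcript length. Groups came from the sample labels. Genes with at least 0.5 CPM in 2 libraries were tested by limma 3.58.1 (R 4.3.3) with a trend on log2(CPM + 1), no covariate and Benjamini-Hochberg adjustment over 14106 genes. Alternatives were other pseudocounts, filters and scalings, TPM, edgeR 4.0.16 and DESeq2 1.42.0 on recovered reads, a replicate block and leaving out each library. The members and lists were chosen with earlier results of these data known. Named members were those that passed, the 10 highest in TPM, the 5 with the largest differences among those of at least 1 CPM on average that did not pass, all TIMPs, and Mmp9, Mmp11, Mmp14 and Timp1, which the study measured by PCR. The study's text reports the PCR of Mmp9, Mmp11 and Mmp14, as upregulated, for the weight loss period, an earlier time than that of these libraries. From each related list the 2 genes with the lowest p that passed are given with values. Other members are named with their group and were chosen after their values were seen. Motifs were searched in RefSeq promoters (GRCm38.p6). The analysis was tested on simulated data.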

Additional observations from a re-analysis of the deposited data

How the results depend on the processing

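Without the filter on low values, 3 members rose and 6 fell, and 6 and 8 related genes did, beside 4.35% and 2.93% of all genes. With DESeq2, 10 members rose and 17 fell, and 19 and 24 related genes did, beside 15.1% and 12.3% of all genes. Leaving out 1 library at a time gave between 0 and 9 members that rose and between 0 and 19 that fell, and between 0 and 23 related genes that rose and between 0 and 33 that fell, with 0 in each case when a Ctrl library was missing, where at most 0.0425% of all genes passed in a direction. Without WC1 1, 17.2% of all genes rose and 19.5% fell. When a library was left out, the lone sample was taken to vary like the other group. With a replicate block, 9 members rose and 13 fell, and 16 and 19 related genes did, beside 12.5% and 10.6% of all genes, but nothing in the labels pairs libraries of the same number, and with 2 pairs the deviations of same-numbered libraries correlated at r = 0.194 across genes. edgeR gave 6 members that rose and 11 that fell. In the TPM matrix 6 of the 54 members changed sign (Mmp10, Adam12, Adamts2, Adamts3, Adamts8 and Adamtsl2), all without passing the test in CPM. That matrix moves the median of all genes from -0.02 to 0.10, and the median of the members, at 0.03, lay below it. None of the 27 members that the naming rule chose changed sign under any of the 14 alternatives, and of their 375 values 299 kept their side of the threshold, 56 lost the call (37 of them on leaving out a library) and 20 gained it. With all libraries in use, 9 of the 18 members passed in every alternative that could test them: Mmp3, Mmp13, Mmp19, Mmp27, Mmp15, Adamts1, Adamts15, Adamts16 and Adamtsl5. Mmp27 and Adamts16 were below the filter at a mean of 5 CPM. Depth limits the members at 0, for which 3 reads, or 0.0345 to 0.0492 CPM by library, is the level that a count of 0 allows, covering counting error only.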

Other observations

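Adam17 was the single member at least 2-fold higher in library 1 than in library 2 of both groups, by 2.61-fold in Ctrl and 2.49-fold in WC1. Of the 14106 genes tested, 10 had this pattern and 10 the opposite one.

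Adam7, an ADAM of the epididymis, was at 0 in both Ctrl libraries, at 3.02 CPM (184 reads) in WC1 1 and at 0.0318 CPM in WC1 2, and so was not tested. In WC1 1 the epididymis markers Lcn5, Lcn8, Crisp1 and Cst11 were at 0, Defb20 was at 0.115 CPM and Rnase10 at 0.229 CPM, which was below its Ctrl values of 0.351 and 0.299 CPM.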
